A study of Mus musculus with 2 samples.

Results

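Krüppel-like factors are transcription factors that bind GC-rich and CACCC elements with zinc fingers at their carboxyl end. The 10 described here, Klf2, Klf3, Klf4, Klf5, Klf6, Klf7, Klf9, Klf10, Klf11 and Klf15, were taken from the array by gene name, with earlier results of these data known, and are 10 of the 30153 genes on it. Their levels were compared between mature hepatocytes (MHs) of healthy liver and Sox9+EpCAM- cells, the biphenotypic hepatocytes of chronically injured liver that carry the cholangiocyte factor Sox9 but not the surface protein EpCAM. 1 RNA sample of each was labelled with the dye Cy3 and hybridised to 1 Agilent mouse array. Both livers came from Sox9-EGFP mice, which report Sox9 by green fluorescence, and both are labelled male. Healthy and injured livers were both digested with collagenase. The MHs were then collected by centrifugation and purified on Percoll. The Sox9+EpCAM- cells were instead obtained as GFP+EpCAM- cells by FACS from mice fed with DDC, a compound that injures the bile ducts. Cell type, injury and method of isolation therefore differ together between the arrays and cannot be told apart. The number of mice, their age and, for the array sample, the length of feeding were not given in the sources used here.

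Members of the family fall into groups by the partners they bind. Klf2, Klf4, Klf5, Klf6 and Klf7 mostly activate transcription through acetyltransferases, Klf3 represses it through the corepressor CtBP, and Klf9, Klf10 and Klf11 bind the corepressor Sin3, whereas Klf15 is known in liver for the control of gluconeogenesis and amino acid breakdown. Several members are induced within minutes to hours by serum, shear stress, wounding, TGF-beta or glucocorticoids.

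With 1 array per group, no value below carries a test or an SD, and the precision is limited by this number. The error given with an intensity is the one the scanner software computed for the spot, and it does not cover variation between mice. A level is the log2 intensity relative to the 75th percentile of its array, which was 741 for MHs and 1110 for Sox9+EpCAM- cells, and a difference is the Sox9+EpCAM- level minus the MH level. A probe that the software did not mark as well above background on one array entered by a bound, set at the dimmest signal that was well above background there or at its own signal if that was higher. These dimmest signals were 27.8 for MHs and 18.4 for Sox9+EpCAM- cells. For probes printed at least 8 times, the median SD between spots of 1 array was 0.08 on the log2 scale on each array. All 9 hepatocyte markers examined were well above background on both arrays, among them Alb with a difference of -0.87 and Hnf4a with -0.23. Against the sex label, Xist was well above background only for MHs (intensity 1940 against 16.1), and the Y-linked genes Ddx3y, Kdm5d, Eif2s3y and Uty were so only for Sox9+EpCAM- cells. The array of MHs thus went against its label, so every difference below also sets apparently female cells against male ones, which cannot be told apart from cell type, injury and isolation, and with 1 array per group no value could be computed without it. In RNA of pooled cells, fewer cells of a type and less RNA per cell cannot be told apart.

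Each of the 10 genes had 1 probe of 60 bases, printed as 1 spot. Since the zinc fingers are much alike in sequence across the family, the probes were compared with one another. The longest stretch that a probe of the 10 shared with the probe of any other Klf or Sp gene was 7 to 11 bases, and with the probe of any other gene on the array 13 to 17 bases. The Klf5 probe was the only one of the 10 that held the codons of the linker between zinc fingers, the stretch most alike across the family, at its bases 38 to 55. It is shown here with these codons in capitals, since a shared stretch could matter most for this probe. It shared at most 8 bases with any other family probe and 17 with the probe of an unnamed transcript. No other Klf or Sp probe held the linker codons, and probes were not compared with whole transcripts. Pairing of the Klf5 probe with RNA of other members was therefore not tested.
Klf5 probe: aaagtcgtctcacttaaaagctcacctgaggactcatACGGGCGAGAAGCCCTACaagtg
The mm9 position of the Klf5 probe, chr14:99702656-99712388 on the plus strand, spans 9733 bases, so its ends lie in different exons. The other 9 probes were unbroken in the genome.

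In Sox9+EpCAM- cells all 10 factors were well above background, and in MHs 7 were. Relative to MHs, Klf2, Klf4, Klf6 and Klf11 were higher by 4-fold or more, Klf15 was lower by 4-fold or more, and Klf3, Klf5, Klf7, Klf9 and Klf10 lay within 2-fold. Over the 23417 genes with a difference, 5.59% were at least 4-fold higher and 5.57% at least 4-fold lower. The counts of the 10 at 2-fold were also 4 higher and 1 lower, beside 14.2% and 16.7% of these 23417 genes. Of the 10, 3 were well above background in Sox9+EpCAM- cells only, as were 15.4% of the 23417, and 0 in MHs only, as were 2.44%. The median difference of the 10 was 0.72, against -0.04 for the 23417 genes. That of the 7 measured on both arrays was 0.45, against -0.19 for the 19235 genes measured on both.

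**Figure D1:**
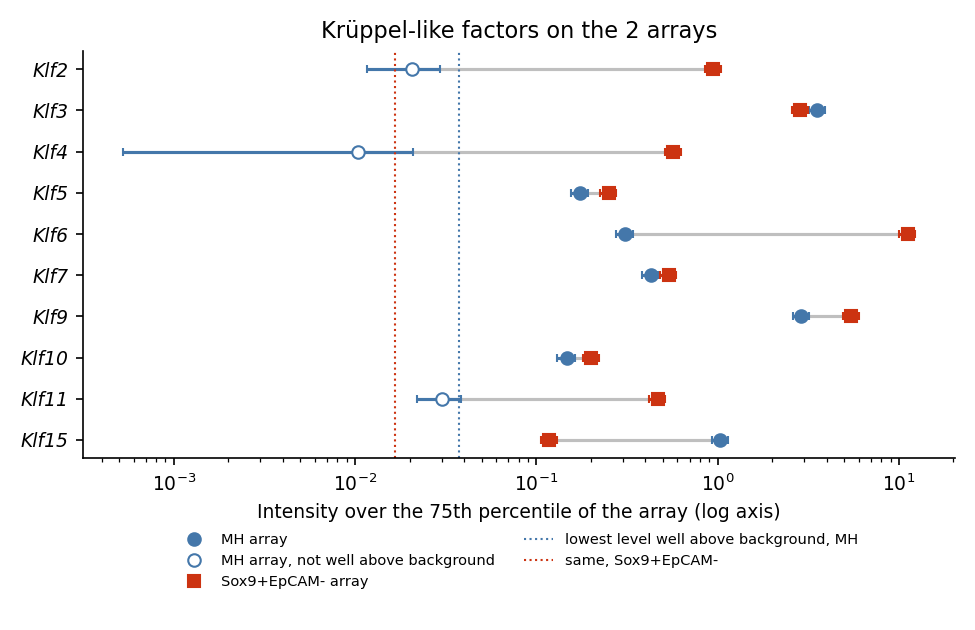
Intensity of each of the 10 genes over the 75th percentile of its array, on a log axis, for MHs (circles, open where not well above background) and Sox9+EpCAM- cells (squares). Bars are the error of the scanner software, and dotted lines mark the lowest level well above background on each array; the open circles of Klf2, Klf4 and Klf11 lie left of the MH line.

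Among the activating members, Klf6 had the largest difference of those measured on both arrays; Klf2 and Klf4 have lower bounds and cannot be ranked against it. KLF6 is known as an early response factor of injured liver, described in activated stellate cells. Its intensity was 228 ± 23.7 for MHs and 12400 ± 1240 for Sox9+EpCAM- cells. The difference was 5.18 ± 0.21 (scanner error), or 36.3-fold higher. Counting Klf6 itself, 19 of the 19235 genes measured on both arrays, or 0.0988%, lay as far or farther from 0 on the same side; this share is given below for the other factors measured on both arrays. Its probe lies at chr13:5869371-5869430 (mm9, plus strand).

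Klf2 and Klf4 were both at background in MHs and clearly detected in Sox9+EpCAM- cells. KLF2 keeps endothelial cells and T cells quiescent, and KLF4 acts in epithelial differentiation and in pluripotency. For Klf2 the intensity was 15.2 ± 6.54 for MHs, not well above background, and 1050 ± 105 for Sox9+EpCAM- cells. Its level was at least 25.2-fold higher, a log2 difference of at least 4.66; with normexp background correction, which adds an offset to every intensity, the bound was 3.01. For Klf4 the intensity was 7.74 ± 7.71 for MHs, not distinguishable from 0, and 631 ± 63.3 for Sox9+EpCAM- cells, which is at least 15.2-fold higher, or at least 3.92 on the log2 scale, but 2.11 with normexp. The Klf2 probe lies at chr8:74845137-74845196 on the plus strand and the Klf4 probe at chr4:55540167-55540226 on the minus strand (mm9).

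Klf5 and Klf7 differed little. KLF5 drives proliferation of epithelial progenitors, and KLF7 is best known from neurons and fat. The intensity of Klf5 was 129 ± 14.1 for MHs and 278 ± 28.0 for Sox9+EpCAM- cells, a difference of 0.52 ± 0.21, or 1.44-fold. That of Klf7 was 316 ± 32.3 for MHs and 597 ± 59.9 for Sox9+EpCAM- cells, a difference of 0.33 ± 0.21, or 1.26-fold. The 75th percentile itself was higher for Sox9+EpCAM- cells, so the unscaled intensities differ by more than the scaled levels. Among genes measured on both arrays, 21.2% lay as far or farther for Klf5 and 26.8% for Klf7. The Klf7 probe lies at chr1:64082265-64082324 on the minus strand (mm9).

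Klf3, the CtBP-dependent repressor, was bright on both arrays. Its intensity was 2620 ± 262 for MHs and 3180 ± 318 for Sox9+EpCAM- cells, and after scaling the difference was -0.30 ± 0.20, or 1.23-fold lower. Of the genes measured on both arrays, 44.6% lay as far or farther. The Klf3 probe lies at chr5:65221309-65221368 on the plus strand (mm9).

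The Sin3-binding members were unequal. KLF10 and KLF11 are both known as TGF-beta-inducible early genes. Klf11 had an intensity of 22.4 ± 6.04 for MHs, not well above background, and 519 ± 52.0 for Sox9+EpCAM- cells, so it was at least 12.5-fold higher, with a log2 difference of at least 3.64, but 2.14 with normexp. Klf10 had an intensity of 109 ± 12.3 for MHs and 223 ± 22.6 for Sox9+EpCAM- cells, a difference of 0.45 ± 0.22, or 1.37-fold. Klf9, which glucocorticoids and thyroid hormone induce, had an intensity of 2150 ± 215 for MHs and 6070 ± 607 for Sox9+EpCAM- cells. Its difference was 0.91 ± 0.20, or 1.88-fold, close to the 2-fold limit, which it passed with a difference of 1.18 when the arrays were scaled to Gapdh and of 1.16 after quantile normalization. As far or farther lay 13.0% of the genes measured on both arrays for Klf9 and 23.4% for Klf10. The mm9 positions are chr12:25347324-25347383 (plus strand) for the Klf11 probe, chr15:38224255-38224314 (minus strand) for Klf10 and chr19:23240410-23240469 (plus strand) for Klf9.

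Klf15 was the only one of the 10 that was clearly lower in Sox9+EpCAM- cells. Its intensity was 764 ± 76.6 for MHs and 131 ± 13.7 for Sox9+EpCAM- cells, and both were well above background. The difference was -3.13 ± 0.21, or 8.74-fold lower, and 262 genes, or 1.36% of those measured on both arrays, lay as far or farther. The probe lies at chr6:90425144-90425203 (mm9, plus strand).

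**Figure D2:**
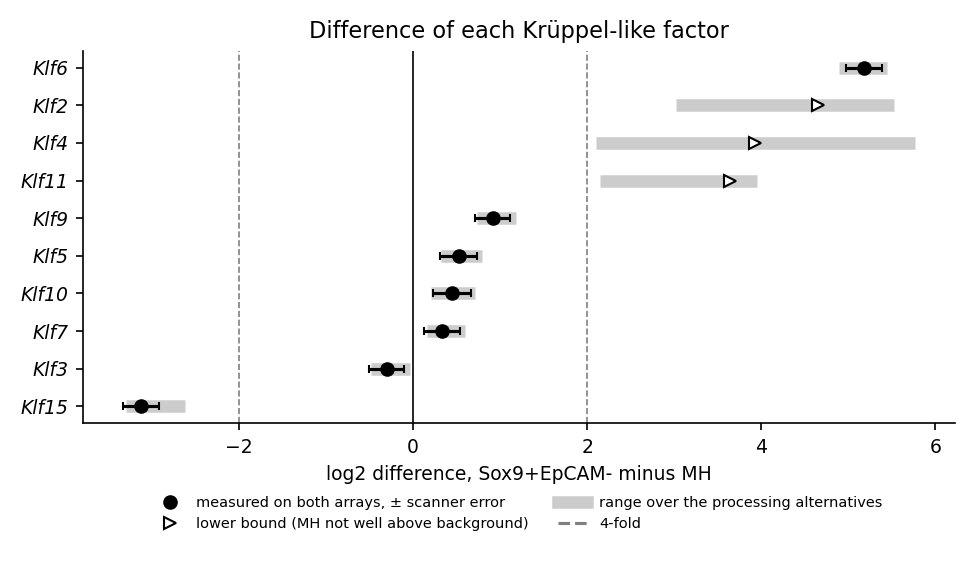
Log2 difference (Sox9+EpCAM- minus MH) of each of the 10 genes; filled circles with bars are genes measured on both arrays with the scanner error, open triangles are lower bounds, and grey bars give the range over the processing alternatives. Klf6, Klf2, Klf4 and Klf11 lie right of the dashed 4-fold line and Klf15 left of the opposite one under every alternative that gave a value.

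The 250 bases before the gene start were read for the 8 of the 10 genes listed in the RefSeq promoter table (build GRCm38.p6). They are shown for 3 of the 4 higher genes, Klf2, Klf4 and Klf6, and for the lower gene Klf15, so that the letters before genes with opposite differences can be set side by side. The window of Klf11, the other higher gene, is not printed, but its motifs are counted below among the 8. Capitals mark the CRE half-site TGACG, bound by CREB factors, the E-box CACGTG, bound by the clock factors, and a MEF2 site, read on either strand; no marked stretches overlapped.
Klf2 (chr8:72318812-72319061, plus strand): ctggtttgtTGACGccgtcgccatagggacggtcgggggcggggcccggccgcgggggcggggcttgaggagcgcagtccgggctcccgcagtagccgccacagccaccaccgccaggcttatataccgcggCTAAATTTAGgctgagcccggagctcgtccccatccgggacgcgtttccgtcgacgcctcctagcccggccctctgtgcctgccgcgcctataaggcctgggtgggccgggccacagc
Klf4 (chr4:55532476-55532725, minus strand): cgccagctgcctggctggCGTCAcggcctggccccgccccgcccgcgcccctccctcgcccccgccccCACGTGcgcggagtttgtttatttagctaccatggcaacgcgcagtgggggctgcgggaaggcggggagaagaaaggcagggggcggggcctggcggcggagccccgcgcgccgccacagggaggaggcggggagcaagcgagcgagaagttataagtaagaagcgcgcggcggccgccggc
Klf6 (chr13:5861239-5861488, plus strand): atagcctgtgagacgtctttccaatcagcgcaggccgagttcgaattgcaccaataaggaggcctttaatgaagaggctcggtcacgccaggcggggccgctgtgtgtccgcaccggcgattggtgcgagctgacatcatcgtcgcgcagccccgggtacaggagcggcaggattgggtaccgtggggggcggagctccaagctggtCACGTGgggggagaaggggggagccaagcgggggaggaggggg
Klf15 (chr6:90462326-90462575, plus strand): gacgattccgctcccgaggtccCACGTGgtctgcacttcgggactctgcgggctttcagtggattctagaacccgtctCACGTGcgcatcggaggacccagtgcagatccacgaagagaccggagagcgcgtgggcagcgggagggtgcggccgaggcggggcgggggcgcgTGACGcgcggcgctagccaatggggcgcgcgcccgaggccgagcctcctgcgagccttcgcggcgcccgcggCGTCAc
The MEF2 site of Klf2 began 118 bases before the start, and 2.92% of the 32851 promoters of the table held such a match in a window of the same length. The TGACG letters stood before Klf2, Klf4, Klf9 and Klf15, or 4 of 8, against 17.8% of all promoters. The E-box stood before Klf4, Klf6, Klf11 and Klf15, also 4 of 8, against 6.02%. Klf4, which was higher, and Klf15, which was lower, held both of these motifs. The GC box GGGCGG, the kind of element the family itself binds, stood before 7 of 8, all but Klf9, against 32.7% of all promoters, and the CACCC element CCACCC before Klf2, Klf3 and Klf7, against 28.1%. No match was found in the 8 windows for the full CRE TGACGTCA, the AP-1 site TGACTCA, the glucocorticoid half-site AGAACA, the TATA letters TATAAA or the CArG box of serum response factor, which stood in 1.55%, 4.46%, 16.1%, 12.4% and 1.47% of all promoters. The 8 windows were rich in G and C, with a median of 71.6% against 52.4% of all promoters, and in CpG, with a median ratio of observed to expected CpG of 0.89 against 0.37, which bears on any motif made of these letters.

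**Figure D3:**
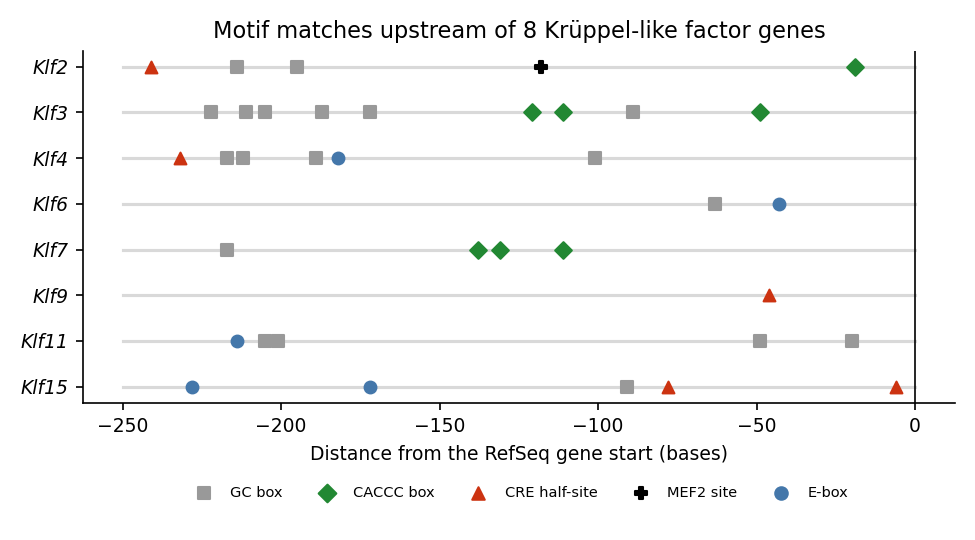
Position of motif matches in the 250 bases before the RefSeq start of 8 of the genes, one line per gene; the x axis is the distance from the start in bases, and each symbol is a motif. The 4 genes with an E-box are Klf4, Klf6, Klf11 and Klf15, and the only MEF2 site is that of Klf2, at -118.

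The rest of the family was read the same way. Of the other Klf genes, 7 were on the array and 5 had a difference, of which 0 were at least 4-fold higher and 2 at least 4-fold lower, with a median of -1.27. Klf13, a Sin3-binding member, had a difference of -4.05 by its brightest probe, with an intensity of 4800 ± 480 for MHs and 434 ± 43.6 for Sox9+EpCAM- cells, or 16.6-fold lower. Its other 2 probes gave smaller differences of -0.86 and -1.55. They lie on the minus strand, whereas the brightest probe is placed on the plus strand (mm9). The size and the 4-fold call for Klf13 are therefore uncertain, and with the median of its probes it was not 4-fold lower. Klf8, a CtBP-binding repressor, had an intensity of 113 ± 12.8 for MHs and of 17.0 ± 4.37, not well above background, for Sox9+EpCAM- cells, or at least 9.20-fold lower; with normexp background correction the difference was -1.78, under 4-fold. Klf1, the erythroid member, was lower by 2.41-fold and Klf16 by 1.98-fold, Klf12 differed by 0.07, and Klf14 and Klf17 were not well above background on either array. Of the 9 Sp genes, which share the zinc fingers, 7 had a difference, with a median of 0.41 that lay between -0.25 and 0.67 over the alternatives. Sp2 was at least 10.8-fold higher by its brighter probe, but its other probe gave -0.52, and with normexp the difference was 1.75, under 4-fold. Sp6 had a difference of -0.47.

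**Figure D4:**
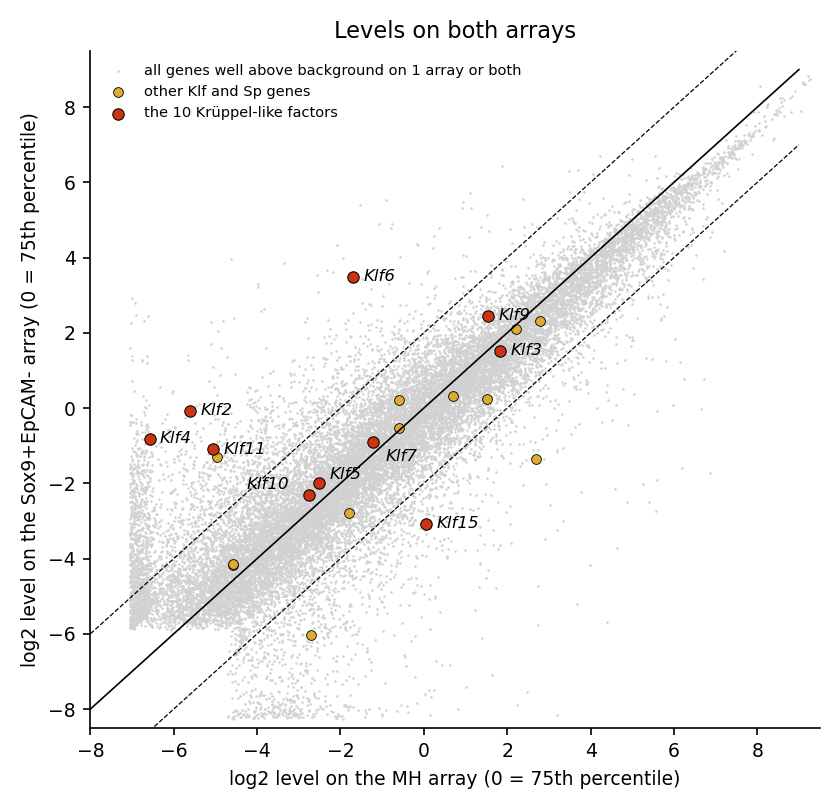
Log2 level (0 is the 75th percentile) of every gene well above background on at least 1 array, MHs on the x axis and Sox9+EpCAM- cells on the y axis, with the 10 genes in red and other Klf and Sp genes in yellow. The solid line is equality and the dashed lines are 4-fold; points that were not well above background on one array are drawn at their measured signal, so Klf2, Klf4 and Klf11 lie farther left than their bounds.

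Partners and upstream genes showed no common direction. Of 11 cofactor genes, 2 were at least 4-fold higher, Fhl3 (2.43, and 4.69 by its other probe) and Ep300 (at least 2.20, but 0.87 with normexp), and 0 lower. Hdac1 had the lowest difference, -1.41 by its brightest probe, with -1.22 and -0.13 by the others. The median of 0.07 changed sign between alternatives, from -0.11 to 0.38. Of 6 genes of ubiquitin ligases known to act on the family, 5 had a difference and 0 passed 4-fold in either direction, from -1.25 for Wwp1 to 1.94 for Btrc, which was 2.21 when scaled to Gapdh and 0.47 by its other probe, with a median of 0.51. The kinase route through Mapk7 (ERK5) and the Mef2 factors is a known inducer of Klf2 and Klf4. By the brightest probe of each of its 7 genes, 0 were at least 4-fold higher and 1 lower, Mapk7 itself at -2.78 (-1.95 with normexp), and Map3k2 was at least 1.24 by its brighter probe and -0.50 by the other. The 3 probes of Mef2d disagreed, with 0.33 for the brightest, -0.33 for another and 4.31, or 19.8-fold higher, for the dimmest in MHs. The median of these 7 was 0.33, and it ranged from -0.08 to 0.89 over the alternatives.

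Stimuli that are known to induce single members were set beside them. For TGF-beta, relevant to Klf10 and Klf11, the ligand gene Tgfb1 had a difference of 0.04, and the receptor genes Tgfbr1 and Tgfbr2 had -0.07 and 0.58 by their brightest probes but 1.31 and -0.77 by another probe each. Of 8 genes of the glucocorticoid response, relevant to Klf9 and Klf15, 0 were at least 4-fold higher and 3 at least 4-fold lower, Tsc22d3 (-3.55), Tat (-2.46, but -1.97 after quantile normalization) and Fkbp5 (-2.18, but -1.92 when scaled to Gapdh); Per1 had 1.49 by its brighter probe and 0.03 by the other. Klf9 and Klf15 thus lay on opposite sides of 0 while the median of this list was -1.04. Of 12 clock genes, Nr1d1 was at least 4-fold higher (4.53), and Cry1 (-2.23) and Per3 (-2.08) at least 4-fold lower, calls that did not hold with normexp (-1.23 and -1.80) and with Gapdh scaling (-1.96 and -1.82), with a median of -0.12 that lay between -0.30 and 0.15 over the alternatives. Of 8 amino acid breakdown genes of the kind KLF15 is known to control, 0 were at least 4-fold higher and 2 at least 4-fold lower, Tat (-2.46) and Prodh (-2.18, but -1.91 when scaled to Gapdh). The median of these 8 genes was -1.30, and 7 of them had differences below 0, as did 12092 of the 23417 genes with a difference and all 9 hepatocyte markers. Of the endothelial genes that KLF2 is known to induce, Nos3 was dim, with a lower bound of 1.14 by its brighter probe. The bound of its other probe fell on the wrong side of 0 and was set to 0, while its measured signals differed by -0.36. S1pr1 had -2.68 and Thbd was not well above background on either array.

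Immediate early genes, a class to which Klf2, Klf4 and Klf6 also belong in many cells, were higher nearly throughout. Of 16 listed, 15 were at least 4-fold higher and 0 lower, with a median of 4.58 and a range, with bounds taken at their value, from 0.60 for Dusp1 to 7.29 for Ier3; the count was 12 to 15 over the alternatives. Their summed level, in multiples of the 75th percentile, was 37.6 for MHs and 451 for Sox9+EpCAM- cells. The part of this response in the differences of Klf2, Klf4 and Klf6 was not tested.

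Markers of other cells that a liver preparation could hold were read because Klf2, Klf4 and Klf6 are also made by endothelial and mesenchymal cells. Of 8 endothelial markers, 7 had a difference, 0 were at least 4-fold higher and 5 at least 4-fold lower (3 to 6 over the alternatives), with a summed level of 7.21 for MHs and 2.10 for Sox9+EpCAM- cells. In Sox9+EpCAM- cells, by the brightest probe of each, Kdr (intensity 1400), Pecam1 (594), Stab2 (187), Tek (65.2) and Clec4g (50.7) were well above background. Oit3 and Cdh5 were not, and Lyve1 was not on either array. The other Kdr probe was much dimmer in Sox9+EpCAM- cells, at 31.2, with a difference of -2.80. The other Stab2 probes read 27.1 and 12.9 in these cells, the latter not well above background. A gate on cells without CD31 and CD45, which removes endothelial cells and leukocytes, was described for FACS analysis of such mice but was not stated for the array sample. The part of endothelial cells in the difference of Klf2 was not tested. Of 10 fibroblast markers, 9 had a difference and 5 were at least 4-fold higher (3 to 6 over the alternatives), among them Eln at 7.06 or more and Col3a1 at 6.41, whereas Des had 0.09 and Pdgfrb was not well above background on either array. The summed fibroblast level was 1.84 for MHs and 41.7 for Sox9+EpCAM- cells, and its part in the differences of the 4 higher factors was not tested. Of 8 leukocyte markers, 1 was at least 4-fold higher, Cd68 (3.85), and 4 at least 4-fold lower, down to -6.43 for Clec4f, with a summed level of 24.9 for MHs and 3.36 for Sox9+EpCAM- cells. Of 8 cholangiocyte markers, 2 were at least 4-fold higher, Spp1 (6.93) and, although the sort took EpCAM- cells, Epcam (3.73); Cftr was lowest at -1.0. Sox9 itself was dim, with an intensity of 8.87 for MHs, not well above background, and of 60.7 for Sox9+EpCAM- cells, and the bound on its difference was 0.53, from 0 to 2.24 over the alternatives. The cholangiocyte list had a summed level of 2.64 for MHs and 49.3 for Sox9+EpCAM- cells. The part of cholangiocytes was not tested either. Of 9 hepatocyte markers, 3 were at least 4-fold lower, led by Cyp3a11 at -8.58, and the summed level was 1159 for MHs and 487 for Sox9+EpCAM- cells. Of 4 erythroid genes, Hba-a1 (-3.95) and Alas2 (-2.10, but -1.84 with normexp) were at least 4-fold lower, the direction that Klf1 also had, and the other 2 were not well above background on either array.

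**Figure D5:**
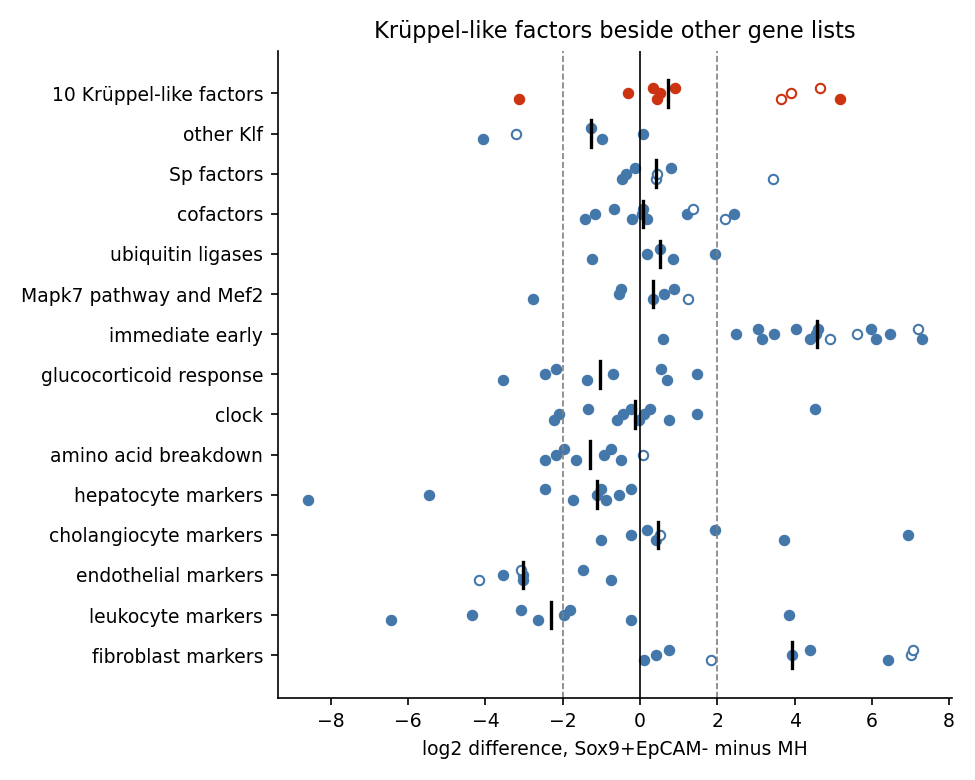
Log2 difference (Sox9+EpCAM- minus MH) of each gene with a difference, by list, with bounds as open circles, the median as a black bar and dashed lines at 4-fold. The 10 Krüppel-like factors, in red, spread from -3.13 to 5.18 around a median of 0.72, while the immediate early genes lie at 0.60 or above around 4.58.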

How the data were processed

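Total RNA of 1 MH sample and 1 Sox9+EpCAM- sample was labelled by a service provider under an undisclosed protocol. The authors deposited the spot intensity of each array as Feature Extraction 10.7.3.1 wrote it, background-subtracted, with its error, mean signal, local background and flags. They also deposited a table of ratio values, in which each processed intensity is divided by the median of its array. Probe positions are those of the array design (mm9), and the exon or UTR of each was not looked up, since no annotation of that build was used here.

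Processed intensities of the 43020 spots that are not controls were scaled to the 75th percentile and taken to log2, outlier spots were left out, and spots of a probe were averaged. Saturated spots numbered 0. A gene was its probe with the highest mean over both arrays, and genes not well above background on either had no difference (6736). Of the bounds, 1540 fell on the wrong side of 0 and were set to 0. Differences were compared by size, at 4-fold, with no test. The share of genes as far or farther counts genes measured on both arrays by distance from 0 on the same side.

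The members and lists were chosen with earlier results of these data known. Named were all 10 members and, of each list, the genes with the highest and lowest difference; genes behind counts of 5 or fewer and single markers were picked with their values in view. Results were recomputed with normexp (offset 50, run in R 4.3.3 with limma 3.58.1), 3 other scalings (the median of probes detected on both arrays, quantile, Gapdh), the deposited table, 2 other choices of probe, outlier spots kept, no bound, only probes detected on both arrays, and limits of 2-fold and 10-fold. The summary of the TGF-beta target list is not reported here. Changes of over 1.5-fold were counted as moves. Python 3.11.15, pandas 2.3.3 and numpy 2.4.6 were used, and the procedure was tested on simulated data.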

Additional observations from a re-analysis of the deposited data

How the results depend on the processing

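The direction of each of the 10 factors was the same under the alternatives run, and 92 of 97 alternative values of single factors moved by less than 1.5-fold. Many of these values could not move, so this count overstates how stable the differences are. With 1 probe and 1 spot per factor, other choices of probe and kept outlier spots changed nothing. Leaving out the bound, or keeping only probes detected on both arrays, could not change factors measured on both. With normexp background correction, which compresses low intensities, the log2 difference was 3.01 for Klf2, 2.11 for Klf4 and 2.14 for Klf11. Without the bound it was 5.53 for Klf2 and 5.77 for Klf4, since the MH signal then counts as measured. When only probes above background on both arrays were kept, 1 factor, Klf6, was at least 4-fold higher, because those with a bound had no value. At a limit of 10-fold, 0 were lower. Klf15 ranged from -3.30 to -2.62, Klf6 from 4.90 to 5.45 and Klf3 from -0.48 to -0.04. Scaling moved the median over genes measured on both arrays by 0.27 (Gapdh) and by -0.18 (deposited table), and the counts of all genes at least 4-fold higher and lower became 1650 and 1006 with Gapdh, 1130 and 1563 with the deposited table, 1230 and 1406 with quantile normalization and 612 and 660 with normexp. The choice of probe could not move a factor with 1 probe. No paired analysis was possible because there is 1 array a group. For the same reason leaving out a replicate and the slide as a block were not run. The MH levels of Klf2, Klf4 and Klf11 could not be measured below the lowest signal well above background.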
